A study of Homo sapiens with 12 samples.

Results

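The genes described here are 35 genes of glycolysis and the hypoxia response, taken from a table of RNA-seq read counts for 62754 Ensembl gene identifiers by matching identifiers to a list of symbols. Each symbol matched 1 row, and all 35 genes had enough counts to be tested, among 17115 tested genes in all. Messenger RNA was sequenced from PC9, a human lung adenocarcinoma line whose growth depends on a mutant epidermal growth factor receptor, EGFR. The drug erlotinib blocks the kinase of that receptor. The table held 12 libraries in 4 groups of 3. Cells with wild-type TDP1 were left untreated (untreated WT), or exposed to erlotinib at 1 µM, for 7 days in the group called drug-tolerant cells (DTC) and for 28 days in the group called drug-tolerant expanded cells (DTEC). The last group was the untreated line KO2, which carries a TDP1 knockout (KO). TDP1 encodes an enzyme that removes trapped topoisomerase I from DNA ends. All groups shared a subclonal PC9 background and a serum-containing medium, and the labels name no low-oxygen condition. The knockout was a single line, and the replicate cultures of a condition came from a common flask. P-values therefore measure the spread between such cultures, and a difference of KO cannot be told apart from a difference between lines.

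Glycolysis carries glucose to pyruvate in a chain of enzyme steps, after glucose has entered through GLUT-type transporters. Pyruvate can be reduced to lactate by lactate dehydrogenase and leave the cell through monocarboxylate transporters, or be oxidised in mitochondria, a route that the pyruvate dehydrogenase kinases restrain. The hypoxia-inducible factors pair an alpha subunit, HIF1A or EPAS1, with ARNT. With oxygen present, prolyl hydroxylases such as EGLN3 mark the alpha subunits for destruction. When oxygen is low the alpha subunits persist and bind DNA at sites with core letters such as ACGTG. They raise many glycolytic genes along with CA9, VEGFA and ANKRD37. Oncogenic EGFR signalling is also known to raise glycolysis in lung cancer cells.

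The stretches below show ACGTG letters before the start of 8 genes, picked from those that hold them: GAPDH, LDHA, GPI, HK2 and PGK1, which were lower in DTC, and ALDOC, CA9 and ANKRD37, which moved in other ways. The enzyme genes ENO1, PKM, PGAM1 and LDHB, which also fell at 2-fold in DTC, had 0 places in the windows searched. Only ACGTG and its reverse complement were searched for, and other forms of the core were not. The stretches shown are laid out as follows. Each is 30 bases long, is read 5′ to 3′ on the strand of the gene, comes from RefSeq promoter sequences on GRCh38.p14, and has the motif in capitals. Where ACGTG overlaps its reverse complement, CACGT, all of CACGTG is in capitals and counts as 1 place.
GAPDH chr12:6535171-6535200 (plus strand): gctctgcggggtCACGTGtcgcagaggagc
LDHA chr11:18394471-18394500 (plus strand): actcaCACGTGggttcccgCACGTccgccg
GPI chr19:34364818-34364847 (plus strand): acactgcctgtaACGTGgaaggtgttcgat
HK2 chr2:74833886-74833915 (plus strand): agccacggaccaCACGTcccatctcaggcg
PGK1 chrX:78104043-78104072 (plus strand): cggACGTGacaaacggaagccgCACGTctc
ALDOC chr17:28577116-28577145 (minus strand): aagtgcccggCACGTGgtaaagggattgtg
CA9 chr9:35673898-35673927 (plus strand): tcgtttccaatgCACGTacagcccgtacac
ANKRD37 chr4:185396676-185396705 (plus strand): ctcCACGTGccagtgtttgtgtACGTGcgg
The places shown begin 81 bases before the RefSeq start in GAPDH, 87 and 73 in LDHA, 162 in GPI, 229 in HK2, 202 and 183 in PGK1, 240 in ALDOC, 18 in CA9, and 162 and 143 in ANKRD37. Further places, not printed, begin 185 bases before the start in LDHA, 48 in HK2 and 28 in ALDOC. By GENCODE 29 the stretches of GAPDH and PGK1 lie in an intron of a longer transcript, that of HK2 lies outside the gene, and the others overlap an untranslated exon of at least 1 transcript. RefSeq start sites were at hand for 30 of the 35 genes. The letters were present, on either strand, in the 250 bases before at least 1 start in 17 of those 30 genes (56.7%). Among all 27305 genes with RefSeq starts at hand, 5935 had them (21.7%). Those 27305 genes were not limited to tested ones, whereas all of the 30 were tested. Genes with more start sites have more windows to search. Counted by window, the share was 20 of 57 for the genes described here (35.1%) and 6501 of all 35116 (18.5%). By the call in DTC, the letters were present in 3 of the 6 genes called higher, in 13 of the 23 called lower and in the 1 not called. A match of 5 letters is a description of the sequence and not a binding site.

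Totals were 25572691 to 38373679 estimated counts per library. A limit of 3 counts, which covers counting error only, equalled 0.0824 to 0.115 CPM (counts per 1000000 of the TMM-scaled library total). TDP1 held 28.1, 25.1 and 25.8 CPM in untreated WT and 10.1, 11.3 and 10.98 in KO, so the libraries labelled KO carried 41.0% of the untreated WT level. The 9 epithelial markers (EPCAM, KRT7, KRT8, KRT18, KRT19, CDH1, ELF3, NAPSA and NKX2-1) had summed levels of 10889 to 11487 CPM (untreated WT), 6455 to 7436 (DTC), 9517 to 12398 (DTEC) and 11604 to 12447 (KO), with NAPSA and NKX2-1 below 2 CPM in every group mean. In DTC 4 of the 9 were called lower (EPCAM, KRT8, KRT18, KRT19) and 3 higher (ELF3, NAPSA, NKX2-1), with a median log2 fold change of 0.06, so the lower sum was not shared by all of them. The 11 markers of fibroblasts, leukocytes and endothelium had summed levels of 66.5 to 70.7 CPM (untreated WT), 98.1 to 107 (DTC), 136 to 153 (DTEC) and 89.6 to 92.8 (KO). Of these, 5 could be tested, and 3 were called higher in DTC and 1 lower. The 4 fibroblast markers summed to 7.99 to 8.91 CPM (untreated WT), 54.4 to 57.1 (DTC), 11.1 to 14.1 (DTEC) and 13.4 to 15.1 (KO). COL1A2 and COL3A1 stayed at the counting limit in all groups, so the fibroblast sums rested on COL1A1 and PDGFRB. For the 3 endothelial markers the sums were 58.5 to 61.4, 41.9 to 49.5, 122 to 142 and 75.7 to 77.2 in the same order. Those of the 4 leukocyte markers reached at most 1.80 CPM, in DTC. Mitochondrial genes took 4.43% to 5.41% of the counts in DTC, with 2.504% to 2.782% in the untreated groups and 1.82% to 2.38% in DTEC. The part of these shifts in the results below was not tested. All 12 libraries carried the same batch label.

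After 7 days of erlotinib most of the glycolytic machinery was lower at the RNA level. Of the 35 genes, 24 fell and 8 rose in DTC against untreated WT, at an adjusted p under 0.05 in edgeR's quasi-likelihood test with Benjamini-Hochberg adjustment over all tested genes ("edgeR adjusted p" below). Over all tested genes 67.3% were called, 33.3% lower and 34.0% higher. At a fold change of at least 2, 17 of the 35 fell and 5 rose, where the background was 13.9% lower and 22.3% higher (36.2% in either direction). The median log2 fold change was -0.92 over the 35 genes and 0.06 over all tested genes. In bulk RNA, fewer cells that carry a transcript and less of it per cell cannot be told apart.

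At 28 days the decreases were smaller. In DTEC against untreated WT 19 of the 35 genes were called lower and 8 higher, where 52.3% of all tested genes were called, 26.3% lower and 26.0% higher. Only 5 of the 35 passed at 2-fold (background 19.9%, of which 6.70% lower): SLC2A3, ALDOC and NDRG1 rose, and PGAM1 and SLC16A1 fell. The median log2 fold change was -0.32 over the 35 genes and 0.02 over all. Compared directly, DTEC was higher than DTC for 21 of the 35 genes and lower for 4, against 28.8% and 26.6% of all tested genes (55.4% in either direction). At 2-fold, 12 of the 35 differed, 9 of them higher in DTEC, against 22.4% of all (8.10% higher). These comparisons share libraries, so each is given by its own values.

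Put together, the 3 comparisons gave 12 courses among the 35 genes. The most common course, in 13 genes (37.1%, against 8.96% of all tested genes), was lower at 7 days, lower at 28 days and higher at 28 days than at 7: ALDOA, ENO1, EPAS1, GAPDH, GPI, HK1, LDHA, LDHB, PFKM, PKM, SLC16A3, TPI1 and VEGFA. For HIF1A, PFKP, PGAM1, PGK1 and SLC2A1, 5 genes (14.3%, against 1540 of the 17115 tested genes), both time points were lower and the difference between them was not called. HK2, PDK1 and PFKL, 3 genes (8.57%, against 9.68% of all), were lower at 7 days only by the threshold and were higher at 28 days than at 7. The remaining 14 genes followed 9 other courses, and those with increases are described by role below. The scaling of the libraries bears on these counts. With library totals in place of TMM scaling, the median of all genes moved by 0.35 in DTC and 0.17 in DTEC on the log2 scale, and the higher share of all calls went from 50.5% to 68.4% and from 49.7% to 63.7%. The 35 genes were then called higher in 9 cases and lower in 22 in DTC, and 9 higher and 13 lower in DTEC.

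**Figure D1:**
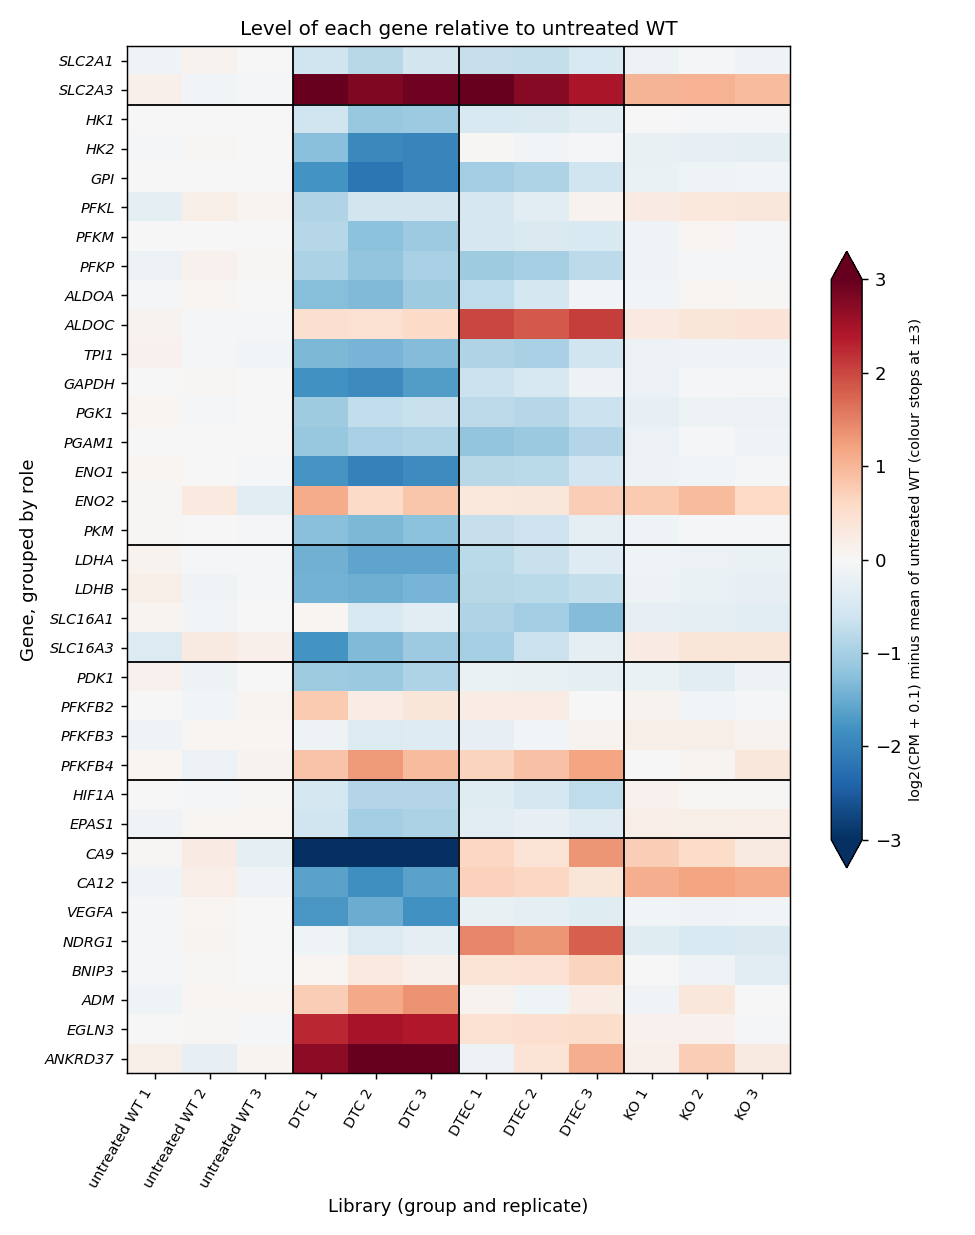
Levels of the 35 genes (rows, ordered by role) in the 12 libraries (columns), as log2(CPM + 0.1) minus the untreated WT mean of the gene, with black lines between groups and between roles. Most enzyme rows are blue in the 3 DTC columns and paler blue in DTEC, while SLC2A3, EGLN3 and ANKRD37 are red in DTC. The 3 KO columns are mostly close to white, with SLC2A3 and CA12 redder and ENO2 more faintly so.

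The glucose transporters went in opposite directions. SLC2A1 encodes GLUT1, a widely expressed carrier, and SLC2A3 encodes GLUT3, which has a high affinity for glucose. SLC2A1 held 212, 253 and 236 CPM in untreated WT, 154, 131 and 159 in DTC, 145, 141 and 169 in DTEC, and 209, 227 and 217 in KO. All 6 treated libraries lay below the 3 untreated WT libraries, and DTC and DTEC overlapped. The log2 fold change was -0.66 ± 0.11 (SE), edgeR adjusted p = 9.1e-05 in DTC and -0.62 ± 0.11 (SE), edgeR adjusted p = 0.000262 in DTEC. SLC2A3 held 16.6, 14.2 and 14.3 CPM in untreated WT, 153, 106 and 114 in DTC, 151, 100.2 and 82.3 in DTEC, and 30.5, 30.9 and 29.1 in KO. Every treated library of SLC2A3 (Ensembl ENSG00000059804, chr12:7919230-7936275 on GRCh38 by GENCODE 29) exceeded every untreated one by a wide margin, with the highest value of each treated group in replicate 1. SLC2A3 had a log2 fold change of 3.05 ± 0.21 (SE), edgeR adjusted p = 2.24e-08 in DTC and 2.89 ± 0.21 (SE), edgeR adjusted p = 1.3e-07 in DTEC. The level in DTC was 826% of that in untreated WT, and the level in DTEC was 739.8%. DTEC and DTC differed by -0.16 (edgeR adjusted p = 0.496); without DTEC replicate 1 the difference was -0.46 with an adjusted p of 0.0243. The near-identical gene SLC2A14 lies beside SLC2A3, and only 1 of the 12 values of SLC2A3 was whole, so reads were shared out among copies. In addition, 3 named pseudogenes held 0% to 14.9% of the summed counts of SLC2A3 and pseudogenes in a library. Over 16 alternatives, that sum among them, the change ran from 2.90 to 3.40 in DTC. In DTEC it ran from 2.62 to 3.06, and both calls were kept throughout. SLC2A14 held a mean of 0.032 CPM in untreated WT and 2.01 in DTC, and adding its counts to SLC2A3 gave 3.07 in DTC and 2.89 in DTEC with the library scaling held (3.11 and 2.91 with the scaling refitted).

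The enzymes of the main route fell together at 7 days. All 15 were called in DTC, 13 of them lower (10 at 2-fold) and ALDOC and ENO2 higher. The 13 ran at 25.4% to 62.7% of their untreated WT level in DTC (median 43.0%) and at 48.2% to 97.8% in DTEC (median 69.8%). Together the 15 enzymes took 1.68% ± 0.0264 (SD, n = 3) of all counts in untreated WT and 0.773% ± 0.0458 in DTC. In DTEC their share was 1.13%, 1.24% and 1.53% in replicates 1, 2 and 3, and in KO it was 1.66% ± 0.0524. DTEC replicate 3 was the highest of its group for 13 of the 15 enzymes and replicate 1 the lowest for 11. The decrease of the 13 in DTC kept its sign with total-count, upper quartile and RLE scaling and in DESeq2, and 12 or 13 were called each time. In DTEC 11 of the 13 were called lower, against 8 with total counts and 9 with upper quartile scaling, both of which turned HK2 positive. For DTEC against DTC, 10 of the 13 were called higher and 0 lower by edgeR and by DESeq2, also with 0 lower at an unadjusted p under 0.05. With either of those scalings 9 were called higher and 0 lower, and 3 changes were negative. With total counts 1 of the 13 was lower at an unadjusted edgeR p under 0.05.

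**Figure D2:**
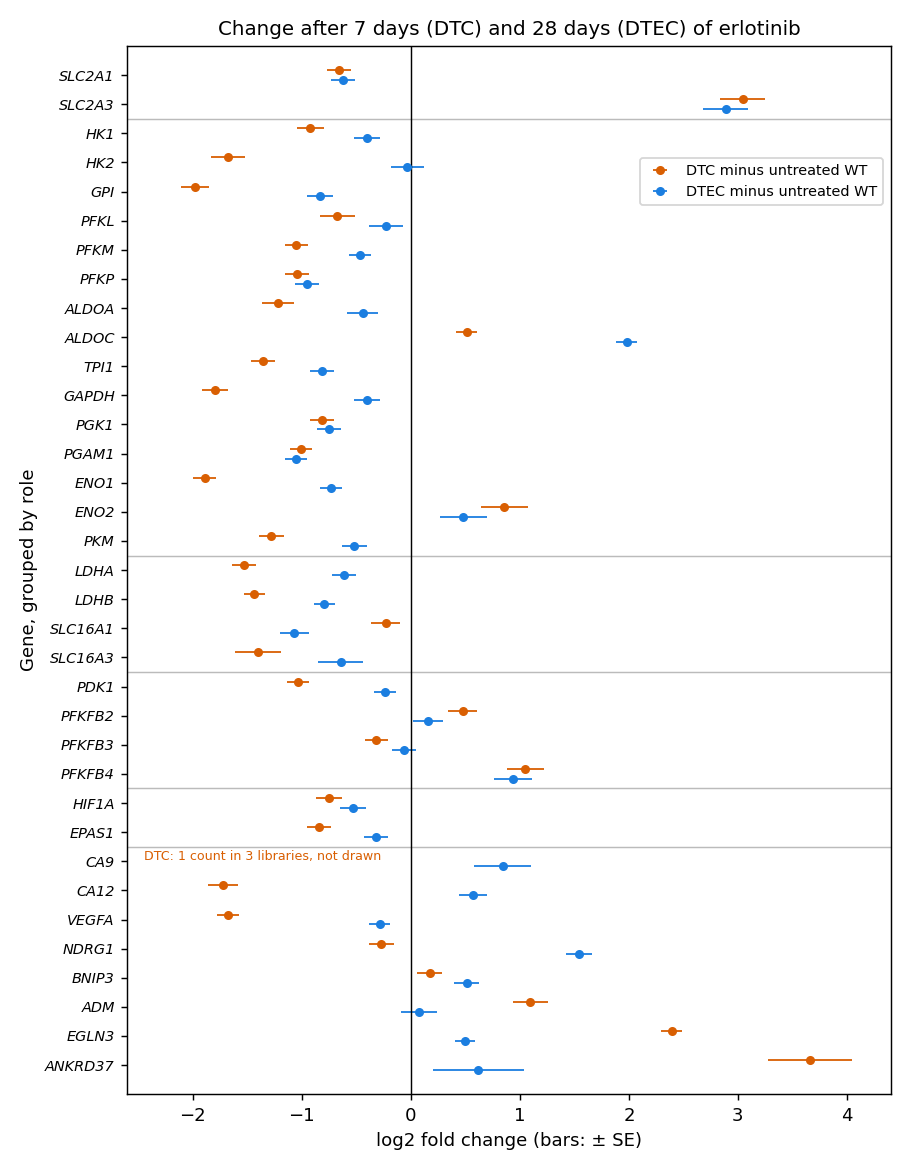
Fitted log2 fold change of each of the 35 genes in DTC (orange) and DTEC (blue) against untreated WT, with bars of ± 1 SE and grey lines between roles; CA9 in DTC, with 1 count in 3 libraries, is not drawn. Orange points lie further left than blue for most enzymes, while SLC2A3 sits near 3 at both times and EGLN3 and ANKRD37 lie far right in DTC only.

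The first steps phosphorylate glucose and turn it into fructose bisphosphate. HK1 held 209, 207 and 204 CPM in untreated WT, 136, 94.0 and 96.9 in DTC, 151, 153 and 164 in DTEC, and 205, 203 and 199 in KO. HK1 and HK2 are the hexokinases that bind mitochondria, and HK2 is the form commonly raised in tumours. HK2 held 138, 146 and 141 CPM in untreated WT, 59.7, 37.0 and 36.0 in DTC, 144, 134 and 137 in DTEC, and 122, 119.6 and 118 in KO. HK2 in DTC lay far below all other libraries, while in DTEC it overlapped untreated WT. Its log2 fold change was -1.68 ± 0.15 (SE), edgeR adjusted p = 2.94e-07 in DTC and -0.03 ± 0.15 (SE), edgeR adjusted p = 0.872 in DTEC, and DTEC exceeded DTC by 1.65 ± 0.15 (SE), edgeR adjusted p = 8.62e-07. For HK1 the changes were -0.92 ± 0.12 (SE), edgeR adjusted p = 1.21e-05 in DTC and -0.40 ± 0.12 (SE), edgeR adjusted p = 0.0126 in DTEC. HK1 lost its DTEC call when untreated WT replicate 1 was left out, and likewise DTEC replicate 1 or DTEC replicate 2 (edgeR adjusted p = 0.0559, 0.0609 and 0.0601). GPI held 762, 768 and 750.1 CPM in untreated WT, 219, 169 and 191 in DTC, 372, 402 and 506 in DTEC, and 666, 698 and 717 in KO. GPI, glucose-6-phosphate isomerase, had the lowest level of the 13 enzymes in DTC relative to untreated WT (25.4%), and its groups did not overlap. GPI had a log2 fold change of -1.98 ± 0.13 (SE), edgeR adjusted p = 7.98e-09 in DTC and -0.83 ± 0.12 (SE), edgeR adjusted p = 6.15e-05 in DTEC.

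Phosphofructokinase, the main control point of the route, is built from the subunits PFKL, PFKM and PFKP. PFKM held 54.7, 55.3 and 54.0 CPM in untreated WT, 30.3, 23.1 and 25.8 in DTC, 38.4, 40.2 and 40.1 in DTEC, and 49.7, 57.2 and 52.6 in KO. The muscle-type subunit was lower at both times, and its log2 fold change was -1.05 in DTC and -0.47 in DTEC (edgeR adjusted p = 6.74e-07 and 0.00171). PFKP held 164, 200.3 and 190.4 CPM in untreated WT, 95.7, 80.8 and 93.2 in DTC, 87.5, 92.2 and 107 in DTEC, and 172, 178 and 180.1 in KO. The platelet-type subunit did not differ by the test between 7 and 28 days (0.09 ± 0.11 (SE), edgeR adjusted p = 0.507), with changes from untreated WT of -1.04 and -0.95. PFKL, the liver type, ranged over 67.3 to 91.7 CPM in untreated WT, 43.3 to 55.4 in DTC and 57.1 to 87.0 in DTEC, and was called lower in DTC only (-0.67 ± 0.16 (SE), edgeR adjusted p = 0.00161). PFKL was called higher in DTEC than in DTC (0.44 ± 0.16 (SE), edgeR adjusted p = 0.0273), a call that was lost without DTC replicate 1 or DTEC replicate 3 (adjusted p = 0.111 and 0.244). Without DTEC replicate 3, PFKL was called lower in DTEC than in untreated WT (adjusted p = 0.0269).

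Aldolase splits the bisphosphate, and its A and C forms moved apart. ALDOA held 2225, 2414 and 2286 CPM in untreated WT, 954, 927 and 1095 in DTC, 1351, 1592 and 2163 in DTEC, and 2189, 2399 and 2376 in KO. The abundant form ALDOA fell by 1.22 ± 0.15 (SE) on the log2 scale in DTC (edgeR adjusted p = 3.77e-06), and DTEC replicate 3 came close to untreated WT. Its call in DTEC (-0.44 ± 0.14 (SE), edgeR adjusted p = 0.0184) was lost when any 1 of the 3 untreated WT libraries, DTEC replicate 1 or DTEC replicate 2 was left out (adjusted p = 0.0525, 0.0883, 0.0637, 0.134 and 0.103). ALDOC held 15.7, 14.03 and 14.4 CPM in untreated WT, 20.6, 20.3 and 22.0 in DTC, 59.0, 52.9 and 62.0 in DTEC, and 18.1, 18.8 and 19.1 in KO. ALDOC, the form typical of brain (Ensembl ENSG00000109107, chr17:28573115-28577264 on GRCh38), was the only enzyme called higher at both times, and its DTEC libraries stood clear of all others. Its log2 fold change was 0.51 ± 0.10 (SE), edgeR adjusted p = 0.000301 in DTC and 1.98 ± 0.10 (SE), edgeR adjusted p = 3.51e-09 in DTEC, and the difference between the treated groups was 1.47 ± 0.10 (SE), edgeR adjusted p = 2.81e-08. Per kilobase of exon, the ALDOA level remained above that of ALDOC in DTEC, at 435 against 19.8 CPM per kilobase.

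The steps from triose phosphate to phosphoglycerate followed 2 courses. TPI1 held 1422, 1261 and 1215 CPM in untreated WT, 509.5, 489.9 and 523 in DTC, 693, 664 and 858 in DTEC, and 1154, 1210.4 and 1203 in KO. TPI1, triose-phosphate isomerase, fell by 1.36 ± 0.11 (SE) in DTC and by 0.81 ± 0.11 in DTEC on the log2 scale (edgeR adjusted p = 8.43e-08 and 2.66e-05). GAPDH held 6276, 6457 and 6256 CPM in untreated WT, 1799, 1693 and 1970.4 in DTC, 4074, 4545 and 5704 in DTEC, and 5640.3, 6093 and 6054 in KO. GAPDH (Ensembl ENSG00000111640, chr12:6533927-6538374 on GRCh38), often used as a reference gene, was at 28.8% of its untreated WT level in DTC, and no DTC library came near another group. Its log2 fold change was -1.80 ± 0.12 (SE), edgeR adjusted p = 1.47e-08 in DTC and -0.41 ± 0.12 (SE), edgeR adjusted p = 0.0105 in DTEC. The call in DTEC was lost without untreated WT replicate 2, DTEC replicate 1 or DTEC replicate 2 (adjusted p = 0.0576, 0.088 and 0.0714). PGAM1 held 512, 523 and 519 CPM in untreated WT, 235, 262 and 273 in DTC, 229, 238 and 282 in DTEC, and 461, 496 and 476 in KO. PGAM1, phosphoglycerate mutase, was lower at both times, and its log2 fold change was -1.01 ± 0.10 (SE), edgeR adjusted p = 6.46e-07 in DTC and -1.05 ± 0.10 (SE), edgeR adjusted p = 1.22e-06 in DTEC. PGK1, phosphoglycerate kinase, behaved likewise by its calls, with 932 to 999 CPM in untreated WT, 454 to 602 in DTC and 532 to 618 in DTEC (-0.82 and -0.75, edgeR adjusted p = 1.54e-05 and 6.37e-05). For PGAM1 and PGK1 the direct difference was -0.04 and 0.06 (adjusted p = 0.742 and 0.661).

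Enolase and pyruvate kinase close the route. ENO1 held 2605, 2462 and 2419.7 CPM in untreated WT, 732, 612 and 674 in DTC, 1404, 1422 and 1682 in DTEC, and 2240.5, 2339 and 2387 in KO. ENO1, the general enolase (Ensembl ENSG00000074800, chr1:8861000-8879250 on GRCh38), had non-overlapping groups at all 3 stages. ENO1 had a log2 fold change of -1.89 ± 0.11 (SE), edgeR adjusted p = 2.42e-09 in DTC and -0.73 ± 0.10 (SE), edgeR adjusted p = 4.19e-05 in DTEC. ENO2 held 2.45, 2.93 and 1.87 CPM in untreated WT, 5.24, 3.59 and 4.31 in DTC, 3.01, 3.06 and 4.01 in DTEC, and 4.18, 4.73 and 3.65 in KO. ENO2, the neuronal enolase, was a minor transcript throughout and was called higher in DTC (0.86 ± 0.21 (SE), edgeR adjusted p = 0.00267) but not in DTEC (0.48 ± 0.22 (SE), edgeR adjusted p = 0.0758). Without untreated WT replicate 2, ENO2 was called in DTEC (adjusted p = 0.0444). PKM held 3396, 3343 and 3227 CPM in untreated WT, 1389.8, 1302 and 1406 in DTC, 2040.4, 2147 and 2772 in DTEC, and 3035, 3194 and 3197 in KO. PKM, which encodes both muscle-type pyruvate kinases, fell in DTC (-1.28 ± 0.11 (SE), edgeR adjusted p = 2.09e-07) and, by less, in DTEC (-0.52 ± 0.11 (SE), edgeR adjusted p = 0.00148). DTEC exceeded DTC by 0.76 ± 0.11 (SE), edgeR adjusted p = 5.96e-05 for PKM and by 1.16 ± 0.10 (SE), edgeR adjusted p = 5.58e-07 for ENO1.

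Lactate dehydrogenase and the lactate exporter SLC16A3 followed the enzymes, whereas SLC16A1 fell later. LDHA held 2934, 2628 and 2672 CPM in untreated WT, 1009.6, 919 and 919 in DTC, 1560.0, 1725 and 2091 in DTEC, and 2495, 2412 and 2380.3 in KO. LDHA, the subunit that favours lactate formation, fell by 1.53 ± 0.11 (SE) in DTC and by 0.61 ± 0.11 in DTEC on the log2 scale (edgeR adjusted p = 3.21e-08 and 0.000357). LDHB held 1213, 996 and 1034 CPM in untreated WT, 404, 388 and 406 in DTC, 605, 613 and 653 in DTEC, and 964, 931 and 913 in KO. LDHB, the heart-type subunit, fell by 1.44 ± 0.10 and by 0.79 ± 0.10 (adjusted p = 1.33e-08 and 1.02e-05). Neither gene's treated libraries overlapped untreated WT. SLC16A3 held 88.1, 139.7 and 129 CPM in untreated WT, 33.6, 46.4 and 54.9 in DTC, 58.1, 74.3 and 95.6 in DTEC, and 138, 150.4 and 149 in KO. SLC16A3 encodes the lactate exporter MCT4, and its untreated WT replicate 1 lay below the other untreated libraries and within the range of DTEC. Its log2 fold change was -1.40 ± 0.21 (SE), edgeR adjusted p = 5.63e-05 in DTC and -0.64 ± 0.21 (SE), edgeR adjusted p = 0.0193 in DTEC. The DTEC call was lost without either of replicates 2 and 3 of untreated WT or 1 and 2 of DTEC (adjusted p = 0.0979, 0.0738, 0.103 and 0.0692). The call of DTEC over DTC for SLC16A3 was lost without DTC replicate 1 or DTEC replicate 3 (adjusted p = 0.0563 and 0.0583). SLC16A1 held 375, 338 and 357 CPM in untreated WT, 369, 261 and 282 in DTC, 192, 173 and 145 in DTEC, and 299.5, 294 and 287 in KO. SLC16A1 encodes MCT1, which moves lactate in either direction. DTC overlapped untreated WT for SLC16A1 (-0.23 ± 0.13 (SE), edgeR adjusted p = 0.133), and all DTEC libraries lay below both (-1.07 ± 0.13 (SE), edgeR adjusted p = 1.27e-05). Without DTC replicate 1, which lay within the untreated range, SLC16A1 was called lower in DTC (adjusted p = 0.00477).

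The 4 regulatory kinases divided evenly in DTC, PDK1 and PFKFB3 lower and PFKFB2 and PFKFB4 higher. PDK1 encodes a pyruvate dehydrogenase kinase, which holds back the entry of pyruvate into mitochondrial oxidation. PDK1 held 56.4, 46.7 and 52.1 CPM in untreated WT, 24.7, 23.9 and 27.2 in DTC, 44.8, 44.3 and 42.7 in DTEC, and 45.3, 41.2 and 46.1 in KO. PDK1 fell by 1.03 ± 0.10 (SE) on the log2 scale in DTC (edgeR adjusted p = 4.35e-07) and was not called in DTEC (-0.24 ± 0.10 (SE), edgeR adjusted p = 0.0558), although all 3 DTEC libraries were below untreated WT. Without untreated WT replicate 2, PDK1 was called lower in DTEC (adjusted p = 0.0416). The PFKFB enzymes make and remove the sugar bisphosphate that activates phosphofructokinase. PFKFB3 held 37.0, 41.2 and 41.3 CPM in untreated WT, 35.7, 30.1 and 30.2 in DTC, 33.8, 37.8 and 42.7 in DTEC, and 44.6, 44.8 and 42.6 in KO. PFKFB3 had smaller changes, -0.32 ± 0.11 (SE), edgeR adjusted p = 0.0184 in DTC and -0.06 ± 0.11 (SE), edgeR adjusted p = 0.644 in DTEC. Its DTC call was lost without untreated WT replicate 2 or 3 or DTC replicate 2 or 3 (adjusted p = 0.0984, 0.105, 0.145 and 0.141), and with total-count scaling the change was 0.04 (adjusted p = 0.767). PFKFB4 held 4.66, 3.91 and 4.79 CPM in untreated WT, 8.11, 10.9 and 8.71 in DTC, 7.16, 8.21 and 10.2 in DTEC, and 4.42, 4.73 and 5.64 in KO. PFKFB4 was higher in every treated library than in any untreated WT library, by 1.05 ± 0.17 (SE), edgeR adjusted p = 8.62e-05 in DTC and 0.94 ± 0.17 (SE), edgeR adjusted p = 0.000412 in DTEC. PFKFB2 held 21.9 to 24.6 CPM in untreated WT, 27.1 to 40.0 in DTC and 23.4 to 27.1 in DTEC, and rose in DTC only by the threshold (0.47 ± 0.14 (SE), edgeR adjusted p = 0.00633). Lower levels in DTEC than in DTC were called for PFKFB2 without DTC replicate 2 or 3 and in DESeq2 (adjusted p = 0.00976 and 0.0466 and 0.0425), but not with all libraries in edgeR (0.0597). For PFKFB3 DTEC was called higher than DTC without DTC replicate 1 or DTEC replicate 1 (adjusted p = 0.0141 and 0.0375), against 0.0615 with all.

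Both alpha subunits of the hypoxia-inducible factors were lower on erlotinib at the RNA level. HIF1A ranged over 491 to 517 CPM in untreated WT, 273 to 353 in DTC and 298 to 394 in DTEC. HIF1A had a log2 fold change of -0.75 ± 0.12 (SE), edgeR adjusted p = 7.87e-05 in DTC and -0.53 ± 0.12 (SE), edgeR adjusted p = 0.00214 in DTEC. EPAS1, which encodes HIF-2 alpha, ranged over 362 to 412 CPM in untreated WT, 195 to 258 in DTC and 301 to 329 in DTEC. EPAS1 changed by -0.84 ± 0.11 (SE), edgeR adjusted p = 9.89e-06 in DTC and -0.32 ± 0.11 (SE), edgeR adjusted p = 0.0254 in DTEC, and DTEC exceeded DTC by 0.53 ± 0.11 (SE), edgeR adjusted p = 0.00101. The DTEC call of EPAS1 was lost without untreated WT replicate 2 or 3 or any 1 of the DTEC libraries (adjusted p = 0.115, 0.107, 0.0783, 0.0603 and 0.078). Without DTC replicate 1, HIF1A was called higher in DTEC than in DTC (adjusted p = 0.00619). HIF alpha subunits are set largely by protein stability, which RNA counts do not measure.

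The 8 genes of the hypoxia response did not move together. In DTC 3 rose at 2-fold (ADM, EGLN3, ANKRD37), 3 fell at 2-fold (CA9, CA12, VEGFA) and NDRG1 and BNIP3 were not called. The 6 of 8 called in DTC (75%) are near the 67.3% of all tested genes, which split into 34.0% higher and 33.3% lower. At 2-fold 22.3% of all tested genes rose and 13.9% fell in DTC. In DTEC 5 of the 8 were called higher and VEGFA lower, where 26.0% of all tested genes were higher and 26.3% lower. CA9 and CA12 are carbonic anhydrases of the cell surface that handle the acid made by glycolysis. CA9 held 3.40, 3.95 and 2.68 CPM in untreated WT, 0.0338, 0 and 0 in DTC, 5.12, 4.39 and 8.41 in DTEC, and 5.55, 4.92 and 4.04 in KO. CA9 (Ensembl ENSG00000107159, chr9:35673856-35681159 on GRCh38) gave 324 counts over the untreated WT libraries, 1 over the DTC libraries and 589 over the DTEC libraries. The ratio of summed counts, scaled to library size, was 324 for untreated WT over DTC, with an exact 95% interval for counting error of 57.7 to 12826. Both differences were called (edgeR adjusted p = 2.28e-08 for DTC against untreated WT and 1.5e-08 for DTEC against DTC). DTEC also exceeded untreated WT (0.84 ± 0.26 (SE), edgeR adjusted p = 0.0142), a call lost without untreated WT replicate 3 or DTEC replicate 3 (adjusted p = 0.0665 and 0.111). CA12 held 7.89, 9.68 and 7.87 CPM in untreated WT, 2.70, 2.30 and 2.70 in DTC, 13.8, 12.99 and 10.9 in DTEC, and 17.9, 19.3 and 18.4 in KO. CA12 had the same course with no overlap between any of the groups, at -1.72 ± 0.14 (SE), edgeR adjusted p = 8.35e-08 in DTC and 0.57 ± 0.13 (SE), edgeR adjusted p = 0.00189 in DTEC.

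VEGFA, the angiogenic growth factor, fell at 7 days and was close to its starting level at 28. VEGFA held 166, 180.3 and 172 CPM in untreated WT, 51.5, 61.2 and 48.7 in DTC, 147, 144 and 134 in DTEC, and 163, 159 and 163 in KO. VEGFA had a log2 fold change of -1.68 ± 0.10 (SE), edgeR adjusted p = 4.27e-09 in DTC and -0.29 ± 0.10 (SE), edgeR adjusted p = 0.0235 in DTEC. The DTEC call was lost without either of replicates 2 and 3 of untreated WT or 2 and 3 of DTEC (adjusted p = 0.0893, 0.0617, 0.0568 and 0.0614). NDRG1 is a stress- and hypoxia-responsive gene linked to differentiation. NDRG1 held 74.7, 82.3 and 77.0 CPM in untreated WT, 71.1, 58.7 and 64.2 in DTC, 214, 197 and 271 in DTEC, and 60.5, 56.5 and 57.5 in KO. NDRG1 was high in DTEC alone (1.54 ± 0.12 (SE), edgeR adjusted p = 1.92e-07), and in DTC all libraries were below untreated WT without passing the test (-0.27 ± 0.12 (SE), edgeR adjusted p = 0.0568). Without DTC replicate 1, NDRG1 was called lower in DTC (adjusted p = 0.0275). BNIP3, a mitophagy receptor, held 15.5 to 16.6 CPM in untreated WT, 16.9 to 19.7 in DTC and 21.5 to 25.7 in DTEC, and was called higher in DTEC (0.51 ± 0.11 (SE), edgeR adjusted p = 0.00179). DTEC exceeded DTC for BNIP3 by 0.34 ± 0.11 (SE), edgeR adjusted p = 0.0204, a call lost without DTC replicate 1 or 3 or DTEC replicate 3 (adjusted p = 0.0531, 0.0746 and 0.147). That call was also lost with total counts and upper quartile scaling (edgeR adjusted p = 0.269 and 0.247). All DTC libraries of BNIP3 were above untreated WT without passing the test (0.17, edgeR adjusted p = 0.199). With those 2 scalings BNIP3 was called higher in DTC (0.53 and 0.46, edgeR adjusted p = 0.00103 and 0.00336).

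ADM, EGLN3 and ANKRD37 peaked at 7 days. ADM held 11.2, 12.7 and 12.8 CPM in untreated WT, 20.4, 26.9 and 31.3 in DTC, 13.3, 11.2 and 14.2 in DTEC, and 11.4, 15.5 and 12.2 in KO. ADM encodes the vasodilator adrenomedullin, and its DTC libraries were above all others (1.10 ± 0.16 (SE), edgeR adjusted p = 3.21e-05), whereas DTEC overlapped untreated WT (0.07 ± 0.16 (SE), edgeR adjusted p = 0.731). EGLN3 held 20.9, 21.5 and 20.2 CPM in untreated WT, 101, 117 and 111 in DTC, 28.5, 29.5 and 30.3 in DTEC, and 22.8, 22.9 and 20.2 in KO. EGLN3 encodes the oxygen-sensing prolyl hydroxylase PHD3, itself a HIF target (Ensembl ENSG00000129521, chr14:33924231-34462774 on GRCh38). Its log2 fold change was 2.39 ± 0.10 (SE), edgeR adjusted p = 1.49e-10 in DTC and 0.50 ± 0.09 (SE), edgeR adjusted p = 0.000507 in DTEC, and the difference of DTEC from DTC was -1.90 ± 0.09 (SE), edgeR adjusted p = 2.03e-09. ANKRD37 held 0.538, 0.371 and 0.490 CPM in untreated WT, 3.51, 7.86 and 6.51 in DTC, 0.396, 0.649 and 1.10 in DTEC, and 0.526, 0.842 and 0.581 in KO. ANKRD37, an ankyrin repeat gene induced by hypoxia (Ensembl ENSG00000186352, chr4:185396021-185400628 on GRCh38), was scarce outside DTC and varied among the DTC libraries, the lowest of which still exceeded every other library. It rose by 3.66 ± 0.39 (SE), edgeR adjusted p = 1.19e-06 in DTC and was not called in DTEC (0.62 ± 0.42 (SE), edgeR adjusted p = 0.228), and the difference of DTEC from DTC was -3.04 ± 0.37 (SE), edgeR adjusted p = 9.81e-06.

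**Figure D3:**
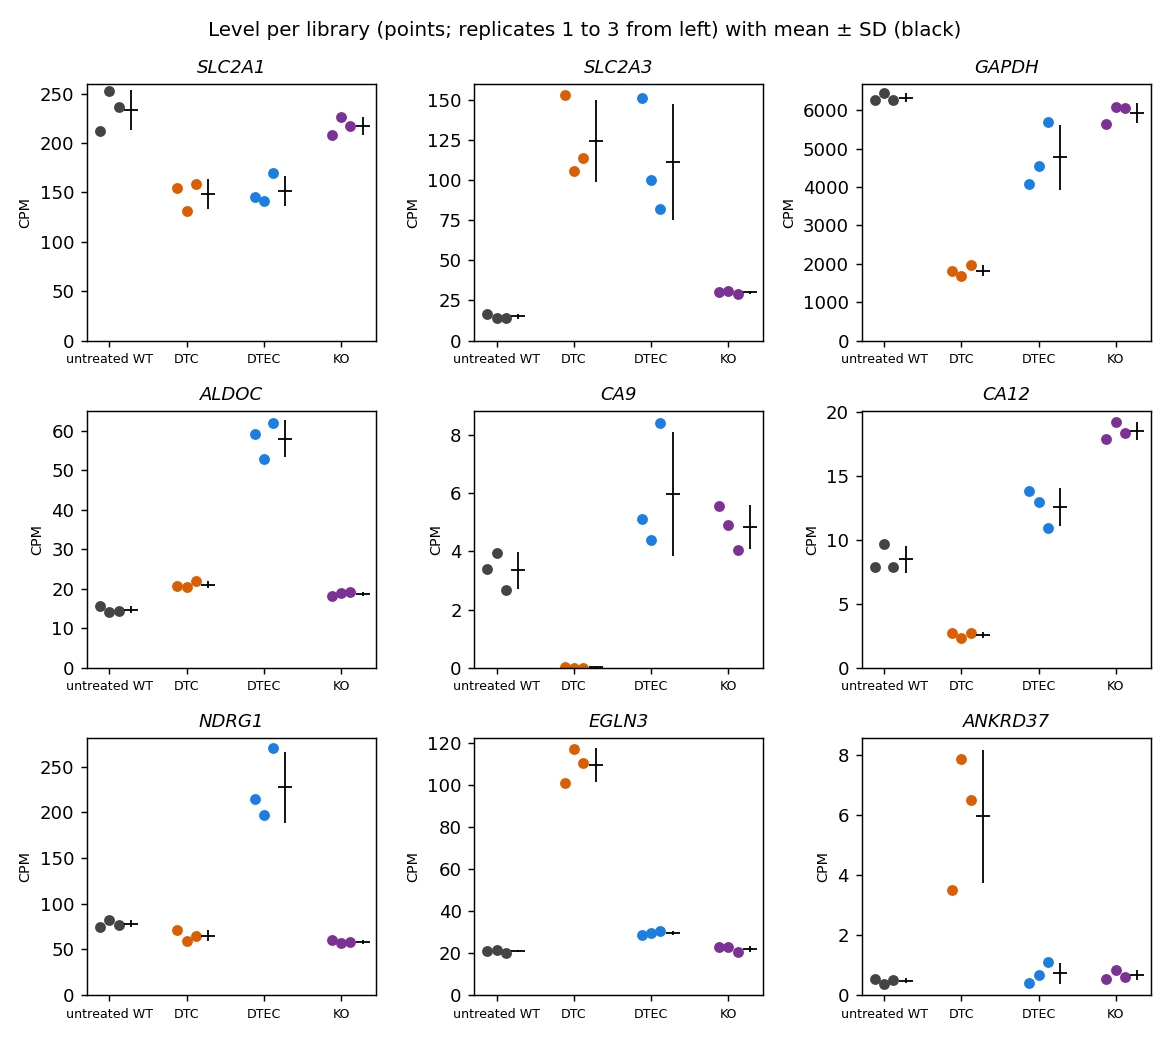
CPM of 9 of the genes in each library (points, replicates 1 to 3 from left) with the group mean ± SD in black, for untreated WT, DTC, DTEC and KO; each axis starts at 0. SLC2A3 is high in both treated groups, GAPDH and CA12 dip in DTC, CA9 is at or near 0 in DTC, ALDOC and NDRG1 are highest in DTEC, and EGLN3 and ANKRD37 peak in DTC.

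Ratios between partner genes do not depend on how libraries are scaled, and 6 were compared in the 4 contrasts, per exon length and within each library. Two-sided exact permutation tests of 3 against 3 libraries cannot give a p under 0.1, which is 0.141 after Benjamini-Hochberg adjustment over the 24 comparisons, so none could pass 0.05. The ratio of SLC2A3 to SLC2A1 was 0.0599, 0.0432 and 0.0466 in untreated WT, 0.761, 0.620 and 0.550 in DTC, 0.801, 0.544 and 0.373 in DTEC and 0.112, 0.104 and 0.103 in KO. Per exon length, SLC2A3 stayed below SLC2A1 in every library, with geometric mean ratios of 0.0494, 0.638, 0.546 and 0.106. That order rests on the exon lengths used: in CPM, SLC2A3 exceeded SLC2A1 in DTEC replicate 1 (151 against 145). The ratio was 12.9 times higher in DTC than in untreated WT (exact permutation p = 0.1, the smallest possible). HK2 to HK1 had geometric means of 0.711, 0.416, 0.920 and 0.614 in the same order, so HK2 lost more than HK1 at 7 days and ended above its starting ratio at 28, with no overlap between any groups. ENO2 to ENO1 went from 0.00118 to 0.00798 in DTC and 0.00275 in DTEC, and was 0.00222 in KO.

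The geometric mean ratio of PFKFB4 to PFKFB3 went from 0.112 in untreated WT to 0.288 in DTC, with 0.223 in DTEC, while KO stood at 0.112. SLC16A3 to SLC16A1 fell to 0.0866 in DTC from 0.193, without overlap, and stood at 0.261 in DTEC, where it overlapped untreated WT (exact permutation p = 0.4). LDHA to LDHB had the narrowest range of group means, at 1.22, 1.14, 1.37 and 1.25, with exact permutation p of 0.2 for DTC, 0.3 for DTEC and 0.7 for KO against untreated WT. For LDHA to LDHB the DTEC libraries all lay above the DTC libraries (exact permutation p = 0.1, the smallest possible).

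**Figure D4:**
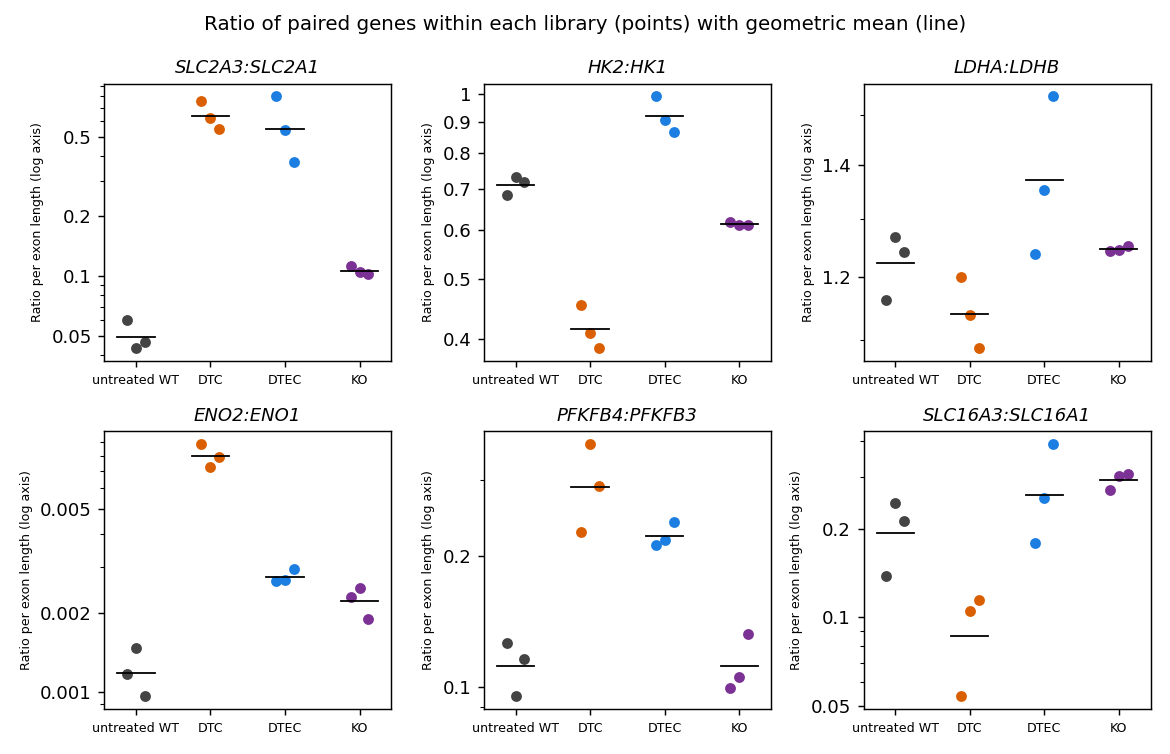
Ratio of the exon-length-scaled levels of 6 gene pairs within each library (points) on a log axis, with the geometric mean of each group (line). SLC2A3 to SLC2A1 is higher in all treated and KO libraries than in untreated WT, HK2 to HK1 separates all 4 groups, and LDHA to LDHB spans the narrowest range of group means.

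In the untreated knockout line few of the genes differed from untreated WT. Of the 35 genes, SLC2A3 and CA12 were called in KO, both higher and both at 2-fold, where 4.31% of all tested genes were called (2.76% higher, 1.55% lower), and 1.30% at 2-fold. SLC2A3 was at 201% of its untreated WT level (log2 fold change 1.00 ± 0.20 (SE), edgeR adjusted p = 0.0114), and CA12 at 218% (1.13 ± 0.13 (SE), edgeR adjusted p = 0.000195). SLC2A3 sits at the 2-fold limit and dropped below it without untreated WT replicate 2 or 3 or KO replicate 2. Of the 15 enzymes edgeR called 0 (2 at an unadjusted p under 0.05, ENO2 and ALDOC), DESeq2 called those 2 higher, and levels were at 84.7% to 122% of untreated WT for the other 13 (median 93.7%). Among the 35 genes, the uncalled ones with the lowest p were ENO2 (0.79 ± 0.21 (SE), edgeR adjusted p = 0.0537), ALDOC (0.35 ± 0.10 (SE), edgeR adjusted p = 0.0619) and NDRG1 (-0.42 ± 0.12 (SE), edgeR adjusted p = 0.0621). Fitting only the 6 libraries of this comparison gave 9 calls in place of 2: SLC2A3, CA12, ALDOC, ENO2 and EPAS1 higher, and PGK1, NDRG1, SLC16A1 and HK2 lower, with log2 changes between -0.40 and 0.82 for those other than SLC2A3 and CA12. Over all genes the fit of 6 libraries called 2656 in place of 738, so calls also increased outside the 35 genes. DESeq2 called 5 of the 35 genes, and 1149 over all genes.

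The wider pathway was read from lists of further genes. Of 20 other glycolysis genes 13 could be tested, and in DTC 5 rose and 5 fell, in DTEC 1 rose and 5 fell. Over all tested genes 34.0% rose and 33.3% fell in DTC, and 26.0% and 26.3% in DTEC, and the lists below are to be read against these shares. SLC2A12, another glucose transporter, was higher at both times (3.34 and 3.04 on the log2 scale, edgeR adjusted p = 5.85e-10 and 5.82e-09). BPGM, bisphosphoglycerate mutase, and the transporter SLC2A6 rose in DTC only by the threshold (3.12 and 2.42, adjusted p = 7.26e-10 and 3.08e-07). HKDC1, a further hexokinase, fell by 1.77 in DTC and by 0.96 in DTEC (adjusted p = 8.5e-09 and 6.99e-06). In KO the 2 calls of this list were SLC2A12, higher (0.81, adjusted p = 0.0123), and HKDC1, lower (-0.41, adjusted p = 0.0493). SLC2A12 lost its KO call when replicate 2 or 3 of untreated WT or replicate 1 of KO was left out (adjusted p = 0.0539, 0.0573 and 0.0521). That of HKDC1 was lost without any 1 of the 6 libraries (lowest adjusted p = 0.17).

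Of 21 genes of pyruvate entry and the pentose phosphate pathway, all tested, 13 fell and 3 rose in DTC, while 6 fell and 7 rose in DTEC. The pentose phosphate enzymes RPIA and TKT fell by 2.06 and by 1.59 in DTC on the log2 scale (edgeR adjusted p = 4.77e-09 and 1.28e-08). Pyruvate carboxylase, PC, was lower in DTC and higher in DTEC (-1.39 and 0.70, adjusted p = 1.13e-07 and 0.000123). PCK2, the mitochondrial PEP carboxykinase, rose by 2.44 in DTEC, and PDK4, the fasting-induced sister of PDK1, by 1.79 (adjusted p = 7.29e-09 and 3.19e-06). PCK2 and PDK4 were also called higher in DTC (1.23 and 0.71, edgeR adjusted p = 9.54e-07 and 0.00443). Of 30 other HIF targets 27 were tested: 9 rose and 9 fell in DTC, and 14 rose and 6 fell in DTEC. The share called in DTC, 66.7%, was close to the 67.3% of all tested genes. At 2-fold 4 of them rose and 3 fell in DTC, where 22.3% of all tested genes rose and 13.9% fell. AK4, a mitochondrial adenylate kinase, and SLC6A6, the taurine transporter, fell by 2.51 and by 1.51 in DTC on the log2 scale (edgeR adjusted p = 2.24e-10 and 4.06e-08). In DTEC the largest called changes of that list were those of DDIT4, INSIG2 and BNIP3L (1.93, 1.36 and 1.28, adjusted p = 7.78e-08, 3.57e-07 and 7.61e-08). DDIT4, INSIG2 and BNIP3L were also called higher in DTC (0.39, 1.27 and 1.07, edgeR adjusted p = 0.0170, 2.25e-07 and 1.15e-07). The medians of these lists in DTC were -0.04, -0.41 and -0.12, against -1.05 for the 15 enzymes above and 0.06 for all tested genes.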

How the data were processed

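The authors deposited 1 table of expected counts, that is estimated read counts per gene that need not be whole, for 62754 gene identifiers in 12 libraries. Per the labels' protocols, RNA was made into libraries with the TruSeq Stranded mRNA kit and sequenced as 101 bp pairs. The submitters' processing notes name RSEM 1.3.1, Bowtie2 2.5.2, DESeq2 1.40.2 and GRCh38, and the annotation release is not given in the sources used here. The deposited counts carry no scaling to depth, and reads that fit several near-identical genes can be split among them. Whole values numbered 0 of 12 for GPI and PGAM1 and 1 of 12 for LDHA, ALDOA, HIF1A and SLC2A3.

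Counts were rounded to whole numbers. The software was R 4.3.3, edgeR 4.0.16, limma 3.58.1 and, as an alternative, DESeq2 1.42.0. Genes were kept by filterByExpr on the groups, which left 17115. A single model with a mean for each group, robust dispersions and TMM factors took all 12 libraries; contrasts were tested by quasi-likelihood F tests with Benjamini-Hochberg adjustment across those genes, and a call means an adjusted p under 0.05. SE is that of the log2 fold change, and ± after a level or share is the SD over 3 libraries. Ratios used counts plus 0.5, divided by exon length from GENCODE 29. The fitting script was tested on simulated data. Totals ran from 25572691 to 38373679 per library, and counting intervals and limits cover counting error only, as the labels name no molecular identifiers.

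The genes, lists and tests were chosen with earlier results of these data known. Values in every library are given for genes called at 2-fold in any comparison and for the partner genes of the ratios, and from each further list up to 3 called genes per comparison with the largest change could be named. A gene that this rule would name is not reported here. The alternatives were other scalings, DESeq2, no filter on low counts, the 6 compared libraries only, a replicate block, summed pseudogenes and each library left out in turn; the sum of SLC2A3 and SLC2A14, with library scaling refitted or held, was chosen after seeing the data. The further lists were other glycolysis genes, pyruvate entry and the pentose phosphate pathway, other HIF targets, oxygen sensing, and glucose sensing and transcription. Of the 11 non-epithelial markers, 4 stood for fibroblasts, 4 for leukocytes and 3 for endothelium. Promoter sequences and start sites came from RefSeq on GRCh38.p14, and no start was at hand for SLC2A3, SLC16A1, PFKFB2, VEGFA and NDRG1.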

Additional observations from a re-analysis of the deposited data

Results flagged for a closer look

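CA9 and CA12 were called in opposite directions at the 2 time points, lower in DTC and higher in DTEC than in untreated WT, and the direct comparison of DTEC with DTC was called for both. For CA12 DTEC exceeded DTC by 2.29 on the log2 scale (edgeR adjusted p = 1.4e-08), with 2.30 to 2.70 CPM in DTC and 10.9 to 13.8 in DTEC. For CA9 the DTC libraries held 1 count in all against 589 in DTEC, a ratio of 603 after scaling to library size (9.24 on the log2 scale, exact 95% interval for counting error 6.75 to 14.54). In the fit of all genes, the difference of CA9 had an edgeR adjusted p of 1.5e-08. The contrasts of both times use the same untreated WT libraries, and the comparison of DTEC with DTC does not.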

How the results depend on the processing

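Of the genes called in DTC, 30 of 32 remained called in every alternative tried, of those in DTEC 20 of 27, of those between DTEC and DTC 22 of 25, and of those in KO 2 of 2. The genes that lost a call without 1 library are named with their values in the report. With total counts, upper quartile scaling, DESeq2 and the fit of 6 libraries, the genes called in KO numbered 4, 4, 5 and 9 in place of 2. With 1 library left out, 1 to 2 of the 35 genes were called at 2-fold in KO. Over all genes the KO count was 738, with 1149 in DESeq2, 1147 without the filter and 2656 with 6 libraries. The all-gene count was 321 to 426 with 1 library left out. The cause was not tested.

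Signs turned for 1 called difference, PFKFB3 in DTC, and otherwise for differences that were not called. With total counts and upper quartile scaling the log2 changes became 0.0848 and 0.0171 for NDRG1 and 0.125 and 0.0548 for SLC16A1 in DTC, 0.135 and 0.0817 for HK2 and 0.104 and 0.0514 for PFKFB3 in DTEC, and, for DTEC against DTC, -0.0977 and -0.0830 for PFKP, -0.126 and -0.115 for PGK1, and -0.151 and -0.136 for SLC2A1. With total counts PFKFB3 became 0.0382 in DTC. Leaving out 1 library at a time gave, in DTEC, -0.0116 to 0.176 for ADM, -0.0443 to 0.000947 for HK2, -0.162 to 0.0371 for PFKFB3 and -0.00997 to 0.0853 for TDP1. For DTEC against DTC it gave -0.0411 to 0.140 for PFKP, -0.177 to 0.00835 for PGAM1, -0.0709 to 0.118 for PGK1 and -0.0892 to 0.0687 for SLC2A1. The log2 ratio of SLC2A3 to SLC2A1 in DTEC against DTC ran from -0.502 to 0.0490, and in KO that of LDHA to LDHB from -0.00827 to 0.0540 and that of PFKFB4 to PFKFB3 from -0.125 to 0.0862.

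With the replicate number as a block, the genes called numbered 33, 28, 26 and 3 of 35 in DTC, DTEC, DTEC against DTC and KO, and 11775, 9255, 9732 and 887 over all genes. Same-numbered libraries deviated together weakly (correlations of -0.013 to 0.179), so the numbers were not taken as a pairing. With 3 libraries per group, exact permutation tests could not pass 0.05. The limit of 3 counts (0.0824 to 0.115 CPM) bears on CA9 in DTC.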

Other observations

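Of 14 tested genes around the hypoxia-inducible factors, 6 fell and 1 rose in DTC, and 6 fell and 3 rose in DTEC (7 and 5 not called). Over all tested genes 33.3% fell and 34.0% rose in DTC, and 26.3% and 26.0% in DTEC; the 7 of 14 called in DTC are a lower share than the 67.3% of all tested genes. HIF3A, an alpha subunit that restrains the others, fell by 1.03 in DTC and by 2.21 in DTEC on the log2 scale (edgeR adjusted p = 0.00291 and 1.92e-05). ARNT2, a partner subunit, fell by 1.07 in DTC (adjusted p = 7.15e-05). CITED2, which competes with the factors for their coactivators and is itself a HIF target, rose by 2.67 in DTC and by 1.73 in DTEC (adjusted p = 1.08e-10 and 1.41e-08). In KO the lowest edgeR adjusted p of the 14 was 0.0612.

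Of 10 genes of glucose sensing and glycolytic transcription, 7 fell and 3 were not called in DTC, and 8 were higher and 1 lower in DTEC than in DTC. The 7 of 10 called in DTC are close to the either-direction background of 67.3%. All 7 were lower, where 33.3% of all tested genes were called lower. In DTEC against untreated WT 2 were called higher and 4 lower, where 26.0% and 26.3% of all tested genes were. Between DTEC and DTC 28.8% of all tested genes were higher and 26.6% lower. SREBF1, a regulator of lipid synthesis, and MYC fell by 2.19 and by 1.98 in DTC (edgeR adjusted p = 4.62e-08 and 3.38e-09), and exceeded their DTC level in DTEC by 2.09 and 1.53 (adjusted p = 1.94e-07 and 9.27e-08). TXNIP, which responds to glucose and lowers its uptake, rose by 1.46 in DTEC (adjusted p = 3.19e-07) and was not called in DTC (0.24, adjusted p = 0.0925). These lists were drawn up with earlier results of these data known.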
